A study of Mus musculus with 8 samples.

Results

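The 30 genes described here encode membrane transporters, pumps and ion channels of cultured connective tissue cells of the mouse embryo, known as MEFs (mouse embryonic fibroblasts). They are the genes of the deposited table whose symbols begin with 1 of 6 prefixes, and they make up 30 of its 875 genes. The prefixes are *Slc* for solute carriers (11 genes, the organic anion carrier *Slco5a1* included), *Kcn* for potassium channels (6), *Scn* for sodium channels (2), *Cacn* for calcium channels (3), *Abc* for ATP-binding cassette transporters (4) and *Atp* for ATP-driven pumps and lipid flippases (4). A further potassium channel gene that carries a prefix was left out by the rule.

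RNA was sequenced from 4 groups of MEFs, with 2 libraries in each group. All groups descend from cells of a mid-gestation embryo in which loxP sites flank part of *EED*, and the control group is this parental line. EZHIP cells carry a lentiviral *EZHIP* transgene, K27M cells a lentiviral transgene for histone H3.3 with lysine 27 replaced by methionine, and both transgenes are driven by a constitutive promoter after selection with puromycin. The labels name no control with an empty vector, so transgene and transduction with selection cannot be told apart. EED-null cells are 1 clone in which transient Cre removed the flanked part of *EED*, so that clone and genotype cannot be told apart. The mouse gene *Eed* and the human transgene are not in the table, and the labels of these groups could not be checked by them. Nothing in the labels says that the 2 libraries of a group came from separate cultures, and p-values then measure only the spread between these libraries, which may be technical.

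Solute carriers move small molecules along or against gradients, ion channels let selected ions pass down theirs, and the ATP-binding cassette proteins and P-type pumps spend ATP to move lipids, drugs, metals or ions. Polycomb repressive complex 2 (PRC2), of which EED is a core subunit, methylates histone H3 at lysine 27 and keeps many genes of other lineages silent in fibroblasts. EZHIP and H3 K27M are inhibitors of this complex, while loss of *EED* removes its activity.

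The values are estimated reads per gene divided by 1 size factor for the library, called normalized expression below. They are not scaled by gene length, so levels are compared between groups and not between genes. The listed genes held between 209390 and 424561 reads per library, and the 30 transport genes between 3242 and 5699. A transport gene had a median of 47 to 94.5 reads in a library. Where each library of a group held 3 reads or fewer, the group was taken to be at the detection floor. A fold change against such a group is printed with "at least" and sets that group to 3 reads per library. It leaves out counting error in the other group and the spread between libraries, so it is not a strict lower bound.

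The table was restricted to genes that differ at least 2-fold between EZHIP and control cells, so that contrast is a description of how the genes were chosen and was not tested. Of the 30 transport genes 20 were higher and 10 lower in EZHIP cells, and of all listed genes 495 were higher and 380 lower. Their share of the reads on listed genes was 1.06% and 1.08% in the control libraries, 1.95% and 1.94% in those with EZHIP, 1.49% and 1.40% in those with K27M, and 1.98% and 1.94% without EED. The smallest fold between EZHIP and control means was 2.04 for *Atp8b1*, a flippase that moves phospholipids between the membrane leaflets. At the other end, *Kcna1*, a voltage-gated potassium channel of axons, was at least 42.2-fold higher in EZHIP cells.

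**Figure D1:**
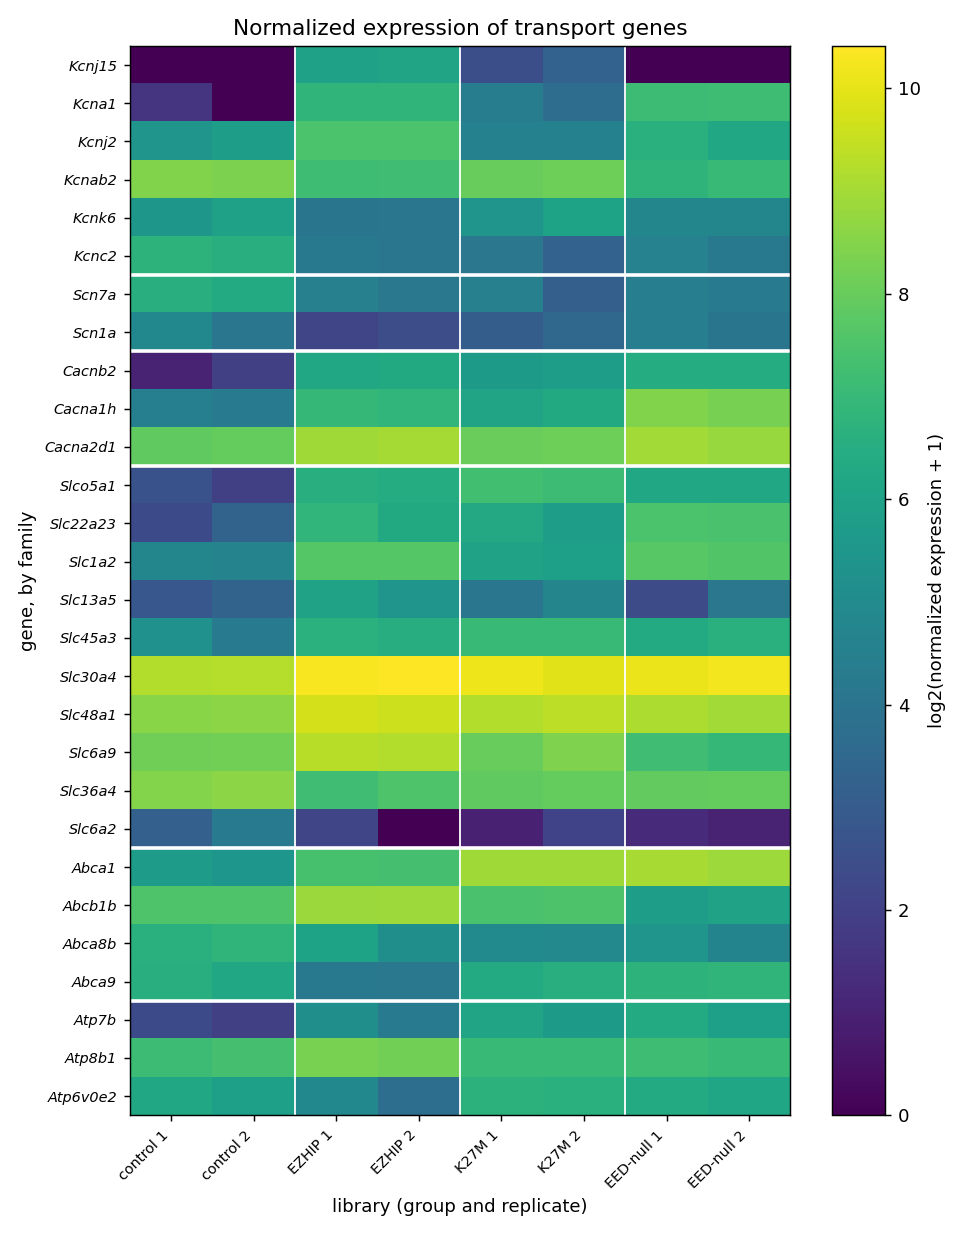
Normalized expression of 28 transport genes, drawn as log2(value + 1), with a row for each gene and a column for each library of the 4 groups. White lines part gene families and groups. *Kcnj15* and *Kcna1* are at or near 0 in control cells and above 60 normalized units in both EZHIP libraries, and *Slc30a4* has the brightest row, at 599.5 or more in every library.

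Of the 12 fibroblast markers looked for, 3 were in the table (*Col3a1*, *Dcn* and *Fap*). Their summed normalized expression was 17719 to 18112 in control, 6460 to 6934 in EZHIP, 5560 to 5876 in K27M and 5723 to 5805 in EED-null libraries. *Col3a1* makes up most of this sum, and the 3 genes did not move together in K27M, where *Col3a1* was lower than in control (log2 -2.89, adjusted p = 3.63e-06 by limma), *Dcn* was higher, at 3192 and 3255 against 364 and 380.1 (log2 3.11, adjusted p = 1.1e-05), and *Fap* was at 162 and 104 against 82.1 and 94.5 (log2 0.56, adjusted p = 0.329). In EED-null cells all 3 were called lower than in control. Of 8 neuronal markers the table held *Stmn2* alone, at 44.1 to 45.03 in control, 1.14 to 2.37 in EZHIP, 10.5 to 14.8 in K27M and 39.7 to 73.5 in EED-null. Of 4 endothelial markers it held *Kdr*, at 157 to 222 in K27M, 51.3 to 52.1 in EZHIP and at most 11.1 in the other groups, and of 4 epithelial markers *Epcam*, at 68.6 to 81.3 in K27M and at most 38.8 elsewhere. None of 7 blood cell and 5 muscle markers were listed. The part of other cell types in the results was not tested, and in bulk RNA fewer cells of a type and less RNA per cell cannot be told apart.

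PRC2 is known to act at promoters rich in CG dinucleotides, so the promoters of a few transport genes are shown first. Each is the 250 bases before the first start site listed by RefSeq for the mouse build GRCm38.p6, read 5′ to 3′ on the strand of the gene, with CG in capitals. *Cacnb2* and *Slc22a23* are among the genes that rose most in K27M and EED-null cells, *Kcnj15* rose in K27M but was at 0 reads in EED-null, and *Kcnc2* and *Scn7a* fell in both. The *Cacnb2* window (chr2:14604056-14604305, plus strand) holds 30 CG and that of *Slc22a23* (chr13:34345219-34345468, minus strand) holds 32. Those of *Kcnj15* (chr16:95257308-95257557, plus strand), *Kcnc2* (chr10:112269767-112270016, plus strand) and *Scn7a* (chr2:66784911-66785160, minus strand) hold 1, 2 and 3.
Cacnb2: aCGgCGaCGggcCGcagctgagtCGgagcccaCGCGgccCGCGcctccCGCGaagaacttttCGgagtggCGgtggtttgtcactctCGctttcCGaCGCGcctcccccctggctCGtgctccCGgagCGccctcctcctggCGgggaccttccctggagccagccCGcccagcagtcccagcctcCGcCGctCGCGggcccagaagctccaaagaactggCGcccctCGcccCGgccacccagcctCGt
Slc22a23: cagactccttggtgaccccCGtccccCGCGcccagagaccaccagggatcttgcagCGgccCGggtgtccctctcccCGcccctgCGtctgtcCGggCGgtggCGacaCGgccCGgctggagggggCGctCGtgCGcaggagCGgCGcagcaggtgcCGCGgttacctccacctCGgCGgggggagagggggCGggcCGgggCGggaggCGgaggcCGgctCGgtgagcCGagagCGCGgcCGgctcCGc
Kcnj15: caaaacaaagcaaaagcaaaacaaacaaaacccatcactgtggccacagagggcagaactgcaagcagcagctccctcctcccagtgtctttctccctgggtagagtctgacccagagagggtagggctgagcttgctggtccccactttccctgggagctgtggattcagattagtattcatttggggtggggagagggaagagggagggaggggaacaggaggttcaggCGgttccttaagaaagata
Kcnc2: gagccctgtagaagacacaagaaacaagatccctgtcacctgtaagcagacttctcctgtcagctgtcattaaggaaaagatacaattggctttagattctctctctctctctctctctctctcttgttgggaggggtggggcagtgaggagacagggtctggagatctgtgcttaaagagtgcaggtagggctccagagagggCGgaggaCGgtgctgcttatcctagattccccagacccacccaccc
Scn7a: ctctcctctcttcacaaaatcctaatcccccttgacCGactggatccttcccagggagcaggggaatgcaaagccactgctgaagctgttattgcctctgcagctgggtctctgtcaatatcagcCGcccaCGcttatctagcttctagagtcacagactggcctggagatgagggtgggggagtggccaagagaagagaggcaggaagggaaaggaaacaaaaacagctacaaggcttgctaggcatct

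A promoter was matched for 21 of the 30 transport genes. The 13 that were higher in EZHIP cells had a median of 20 CG in the window (range 1 to 40), and the 8 that were lower had a median of 5 (range 2 to 23). The ranges overlapped, and the windows shown do not stand for all members. *Slc1a2*, called higher in K27M and EED-null, held 1 CG, while *Slc36a4* and *Kcnab2*, lower in EZHIP cells, held 23 and 20. Whether CG content goes with the changes was not tested. Over the 561 listed genes with a promoter the medians were 16 for 327 higher and 9 for 234 lower genes, and the median of all 27025 mouse promoters was 6. At least 1 CG, which reads the same on both strands, was present in 91.7% of all promoters, 97.9% of those of listed genes and 100% of those of the transport genes. *Atp8b1*, *Cacna1h*, *Kcna1*, *Kcnk6*, *Slc48a1*, *Slc6a2* and *Slco5a1* were among those with no match.

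Whether the transport genes of EZHIP cells behaved alike under H3 K27M and after loss of *EED* was asked by setting each of these groups against control. Genes were tested with limma on log2(value + 1), and a gene was called at an adjusted p under 0.05 and a difference of at least 1 on that log2 scale, which is what 2-fold means for a call. Folds printed for single genes are ratios of group means, which can pass 2 where the log2(value + 1) difference stays under 1. In K27M cells 12 transport genes rose and 6 fell, 60% of the 30 together, where 61.4% of all listed genes were called (41.4% higher and 20% lower). In EED-null cells 11 rose and 7 fell, again 60% of the 30, where 65% of all listed genes were called (39.9% higher and 25.1% lower). Both contrasts use the control libraries on which the table was selected, and they share them with each other.

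Among the 20 transport genes that were higher in EZHIP cells, the same 11 were called higher in K27M and in EED-null cells. They included *Abca1*, *Atp7b*, *Cacna1h*, *Cacnb2*, *Kcna1*, *Slc1a2*, *Slc22a23*, *Slc45a3* and *Slco5a1*. K27M added *Kcnj15*, which makes 60% of the 20 against 62.4% of the 495 listed genes of that direction, and the 11 in EED-null made 55% against 68.3%. Of the 10 that were lower in EZHIP cells, *Abca8b*, *Kcnc2*, *Scn7a* and *Slc6a2* were called lower in both groups, with *Scn1a* added in K27M and *Kcnab2* in EED-null. That is 50% in each group, where 39.7% (K27M) and 55% (EED-null) of the 380 listed genes were called lower. How many of all listed genes were called alike in both groups was not counted. Both contrasts share their control libraries, and the overlap of the calls is not read as a trait of transport genes.

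Only 3 transport genes were called against their direction in EZHIP cells. *Kcnj2* was lower in K27M, while *Abcb1b* and *Slc6a9* were lower in EED-null cells, and each of them was higher in EZHIP. Calls of that kind made up 4.85% of the 495 genes in K27M and 2.22% in EED-null. No transport gene that was lower in EZHIP cells was called higher in K27M or EED-null by limma, where 13.9% and 2.89% of the 380 were, and none was called in opposite directions in K27M and EED-null against control. At an unadjusted p under 0.05 and with no fold limit, *Abca9* was higher in EED-null, and *Kcnj2* was the 1 gene that differed from control in opposite directions, lower in K27M and higher in EED-null.

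The median log2 difference over the 20 genes was 1.96 in K27M and 2.07 in EED-null, and over the 495 it was 1.61 and 1.93. With genes at the floor set to their bound, the medians for K27M became 1.56 and 1.52 and those for EED-null 2.07 and 1.85. Over the 10 lower genes the medians were -0.91 and -1.22, and over the 380 they were -0.68 and -1.14. Adding 1 before the logarithm makes these differences too small for genes with few reads. An exact permutation test of a single gene between 2 and 2 libraries cannot go below a two-sided p of 0.333.

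**Figure D2:**
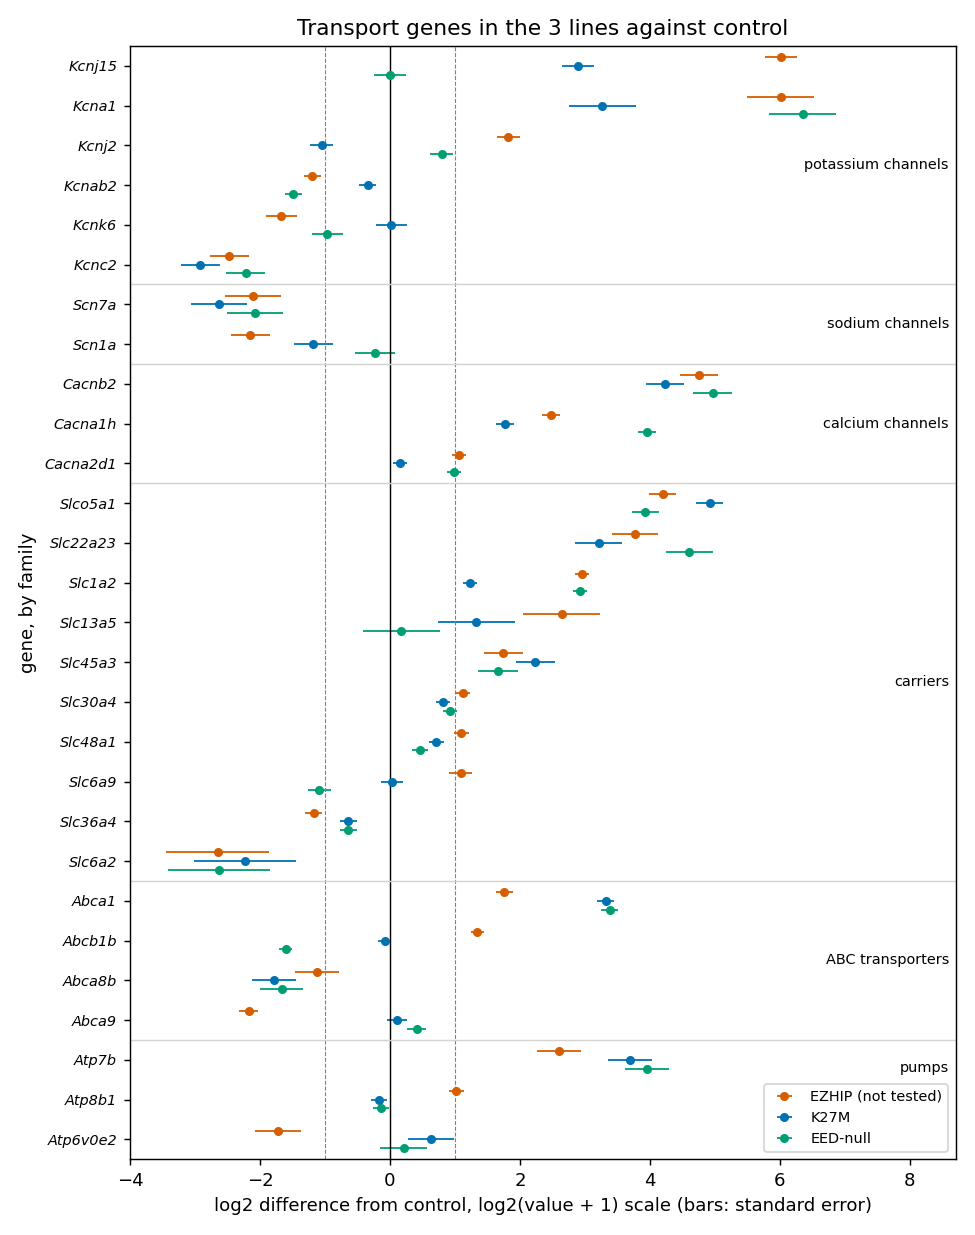
Log2 difference from control of 28 transport genes in EZHIP (orange, not tested), K27M (blue) and EED-null cells (green), on the log2(value + 1) scale, by gene family. Bars are standard errors from limma with 2 libraries per group, and dashed lines mark 2-fold. Genes with points on both sides of 0 are *Abcb1b*, *Slc6a9*, *Kcnj2*, *Atp8b1*, *Abca9*, *Atp6v0e2* and *Kcnk6*.

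The potassium channels went in several directions. *Kcna1* had normalized values of 2.05 and 0 in the control, 111 and 112 in the EZHIP, 20.4 and 12.2 in the K27M and 141 and 142 in the EED-null libraries. No pair of groups overlapped, and the K27M libraries lay between control and the other lines. Lack of overlap was common in the table and is not read as a trait of single genes. Over all 875 listed genes it held for 86.4% (EED-null against EZHIP) to 92.3% (EED-null against control) in the tested contrasts. In EZHIP against control it held for 100%. The gene rose at least 6.17-fold in K27M (adjusted p = 0.00132) and at least 53.6-fold in EED-null cells (adjusted p = 5.48e-05). The *Kcna1* locus spans 126586481 to 126595819 of chromosome 6 (mm9, minus strand).

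*Kcnj15* encodes an inward rectifier, a potassium channel that passes inward current more easily than outward current. Its values were 0 and 0 in the control, 60.4 and 67.3 in the EZHIP, 4.64 and 8.74 in the K27M and 0 and 0 in the EED-null libraries. Control and EED-null cells thus shared the absence of reads, which allows up to 3 reads in each library, while EZHIP stood far above the rest. The rise in K27M was at least 2.53-fold (adjusted p = 7.75e-05) and rests on 5 and 10 reads.

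*Kcnj2*, the inward rectifier that sets the resting potential of muscle cells, was at 42.1 and 56.1 in the control, 174 and 174 in the EZHIP, 23.2 and 22.7 in the K27M and 95.7 and 75.6 in the EED-null libraries. The groups did not overlap, with K27M below control and the other lines above it. In K27M *Kcnj2* fell by 1.05 ± 0.18 (SE) on the log2 scale (adjusted p = 0.00178), a call that was lost without the second control library (log2 -0.85) and with a pseudocount of 5 (log2 -0.94). In EED-null cells its difference of 0.79 ± 0.18 had an adjusted p of 0.00588 but was under 2-fold.

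*Kcnc2*, a fast delayed rectifier of neurons that fire at high rates, was at 106 and 90.8 in control libraries. It had 17.8 and 15.96 in the EZHIP, 16.7 and 8.74 in the K27M and 23.6 and 17.4 in the EED-null libraries, all of which lay below both control libraries. The gene was 7.73-fold lower in K27M (log2 -2.91 ± 0.30, adjusted p = 0.000181) and 4.79-fold lower in EED-null cells (log2 -2.22 ± 0.30, adjusted p = 0.000589). *Kcnab2*, an auxiliary beta subunit of voltage-gated potassium channels, had means of 336 ± 12.2 (SD, n = 2) in control, 146 ± 2.94 with EZHIP, 265 ± 18.1 with K27M and 120.0 ± 16.7 in EED-null. It fell 2.80-fold in EED-null (adjusted p = 7.76e-05), and in K27M the log2 difference of -0.34 had an adjusted p of 0.0484 and was under 2-fold. *Kcnk6*, a channel that carries background potassium current, was at 52.7 ± 12.1 in control, 15.7 ± 0.405 with EZHIP, 54.1 ± 16.2 with K27M and 26.3 ± 0.124 in EED-null. Its log2 difference from control was 0.02 in K27M, with a 95% confidence interval of -0.56 to 0.61, and -0.96 in EED-null (adjusted p = 0.00956). The ratio of means in EED-null was 2.01, but the log2(value + 1) difference was under the 1 that a call needs, and it passed 1 without the first control library (-1.19) and when libraries were rescaled on the listed genes (-1.35).

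Both sodium channel genes were lower in EZHIP cells. *Scn7a*, a sodium channel that responds to extracellular sodium rather than to voltage, was at 93.4 and 81.9 in the control, 22.5 and 17.1 in the EZHIP, 22.3 and 7.87 in the K27M and 20.8 and 19.4 in the EED-null libraries. Control stood apart from the other groups, which overlapped with each other. *Scn7a* was 5.82-fold lower in K27M (log2 -2.62 ± 0.43, adjusted p = 0.0016) and 4.36-fold lower in EED-null (log2 -2.07 ± 0.43, adjusted p = 0.00441).

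*Scn1a*, a voltage-gated sodium channel of neurons, was at 27.7 and 16.2 in the control, 3.55 and 4.56 in the EZHIP, 7.42 and 10.5 in the K27M and 20.8 and 15.5 in the EED-null libraries. EED-null overlapped with control, and the other groups lay below both. The fall in K27M was 2.45-fold (log2 -1.18 ± 0.30, adjusted p = 0.0113). The call was lost without the first control library (log2 -0.81), without the first K27M library (log2 -0.95, adjusted p = 0.0665) and with a pseudocount of 5 (log2 -0.93).

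All of the calcium channel genes were higher in EZHIP cells. *Cacnb2*, a beta subunit that carries high-voltage-activated channels to the membrane, was at 1.03 and 2.95 in the control, 72.2 and 78.7 in the EZHIP, 50.1 and 54.2 in the K27M and 87.3 and 87.2 in the EED-null libraries. The control libraries held 1 and 4 reads, and no pair of groups overlapped. *Cacnb2* rose 26.2-fold in K27M (log2 4.23 ± 0.30, adjusted p = 3.02e-05) and 43.9-fold in EED-null (log2 4.96 ± 0.30, adjusted p = 1.62e-05).

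*Cacna1h* encodes a pore-forming subunit of T-type channels, which open near the resting potential. It was at 21.6 and 19.2 in the control, 122 and 114 in the EZHIP, 65.9 and 78.7 in the K27M and 349 and 312 in the EED-null libraries, so that control was lowest, then K27M, then EZHIP, and EED-null highest. The rise was 3.55-fold in K27M (log2 1.77 ± 0.14, adjusted p = 4.36e-05) and 16.2-fold in EED-null (log2 3.96 ± 0.14, adjusted p = 1.98e-06). Exons of *Cacna1h* (chromosome 17, 25511230 to 25570728, minus strand of mm9) overlap a gene on the opposite strand. *Cacna2d1*, the alpha-2-delta subunit that raises channel density at the surface, was at 235 and 244 in the control, 485 and 516 in the EZHIP, 258 and 279 in the K27M and 500.4 and 451 in the EED-null libraries. Its difference was 0.16 in K27M, with a 95% confidence interval of -0.10 to 0.43, and 0.98 in EED-null (adjusted p = 0.000227), a 1.98-fold difference that passed 2-fold without the second EED-null library (log2 1.06) or the second control library (log2 1.01).

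Among the solute carriers the largest rises were those of *Slco5a1* and *Slc22a23*, members of the organic anion and organic cation carrier families. *Slco5a1* was at 5.13 and 2.95 in the control, 92.3 and 86.6 in the EZHIP, 154 and 142 in the K27M and 73.5 and 74.6 in the EED-null libraries. It rose 36.6-fold in K27M (log2 4.92 ± 0.21, adjusted p = 4.83e-06) and 18.3-fold in EED-null (log2 3.93 ± 0.21, adjusted p = 9.78e-06). *Slc22a23* was at 4.11 and 8.86 in the control, 115 and 79.8 in the EZHIP, 77.0 and 54.2 in the K27M and 173 and 171 in the EED-null libraries. K27M lay below EZHIP and EED-null above it, with no overlap, and the rise over control was 10.1-fold in K27M (adjusted p = 0.000259) and 26.5-fold in EED-null (adjusted p = 4.51e-05).

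*Slc1a2*, the glutamate transporter known best from astrocytes, was at 26.7 and 24.4 in the control, 204 and 204 in the EZHIP, 63.7 and 58.6 in the K27M and 208 and 192 in the EED-null libraries. EED-null overlapped with EZHIP, and K27M lay between them and control. The gene rose 2.40-fold in K27M (log2 1.23 ± 0.11, adjusted p = 8.19e-05) and 7.83-fold in EED-null (log2 2.92 ± 0.11, adjusted p = 2.39e-06), and the K27M call was lost when libraries were rescaled on the listed genes (log2 0.78). *Slc45a3*, a sugar carrier first known from prostate, was at 28.6 ± 13.3 in control and 93.0 ± 7.40 in EZHIP, and it rose to 131 ± 1.68 in K27M (adjusted p = 0.000626) and 88.1 ± 11.02 in EED-null (adjusted p = 0.00238).

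Several carriers that were higher in EZHIP cells were not called in K27M or EED-null. *Slc30a4*, which exports zinc from the cytosol, differed from control by 0.81 in K27M and 0.93 in EED-null, and *Slc48a1*, a heme carrier of endosomes, by 0.72 and 0.46. All of these values had adjusted p-values of 0.0111 or less and were under 2-fold. *Slc13a5*, the sodium-coupled citrate carrier, was at 7.51 ± 1.91 (SD, n = 2) in control, 52.5 ± 14.5 with EZHIP, 20.7 ± 6.64 with K27M and 10.3 ± 8.71 in EED-null. Its difference in K27M was 1.33 (95% confidence interval -0.11 to 2.77, adjusted p = 0.0782), which passed the threshold when either EED-null library was left out (adjusted p = 0.0133), when control and K27M were fitted alone (0.021), with a variance trend (0.0454) and, narrowly, with a pseudocount of 5 (log2 1.02). In EED-null it was 0.18 (-1.26 to 1.62). *Slc36a4*, an amino acid carrier of the proton-coupled family, was lower in EZHIP cells and also not called in K27M or EED-null. It was at 375 ± 22 in control, 167 ± 25.1 with EZHIP, 240.4 ± 6.56 with K27M and 240.1 ± 4.37 in EED-null. It differed by -0.64 in either group (adjusted p = 0.0045 in K27M and 0.00417 in EED-null) and passed 2-fold in both when libraries were rescaled (log2 -1.10 and -1.03).

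The carriers of neurotransmitters besides *Slc1a2* were *Slc6a9* and *Slc6a2*. *Slc6a9*, the glycine transporter GlyT1, was at 287 ± 7.07 (SD, n = 2) in control, 611 ± 24.4 with EZHIP, 297 ± 60.1 with K27M and 135 ± 20.2 in EED-null. K27M overlapped with control (log2 0.03, 95% confidence interval -0.40 to 0.46), and EED-null was 2.12-fold lower (log2 -1.09 ± 0.18, adjusted p = 0.00135), just under 2-fold without the second EED-null library (log2 -0.94). Exons of *Slc6a9* overlap genes on the opposite strand.

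*Slc6a2*, the noradrenaline transporter, was at 8.21 and 18.4 in the control, 3.55 and 0 in the EZHIP, 0.927 and 3.23 in the K27M and 1.39 and 0.969 in the EED-null libraries. All libraries but those of control held under 4 reads, and the noradrenaline transporter was at least 3.77-fold lower in EED-null cells (adjusted p = 0.0201). In K27M its log2 difference was -2.23 ± 0.79 (adjusted p = 0.0387). The K27M call was lost without either K27M library, either EED-null library or the second control library (log2 -2.80 to -1.66, adjusted p = 0.0513 to 0.183), and the EED-null call without either EED-null library or the second control library (log2 -2.76 to -2.09, adjusted p = 0.0595 to 0.0948). With a pseudocount of 0.1 both calls of *Slc6a2* were lost (adjusted p = 0.187 in K27M and 0.121 in EED-null).

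Of the ATP-binding cassette transporters, *Abca1*, which exports cholesterol to lipid-poor apolipoprotein, rose most. It was at 52.4 and 42.8 in the control, 166 and 159.6 in the EZHIP, 479.5 and 482 in the K27M and 531 and 478 in the EED-null libraries. K27M and EED-null overlapped and lay above EZHIP, which lay above control. The rise was 10.1-fold in K27M (log2 3.32 ± 0.13, adjusted p = 3.94e-06) and 10.6-fold in EED-null (log2 3.38 ± 0.13, adjusted p = 2.92e-06). 

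*Abcb1b* encodes a P-glycoprotein, a pump of many drugs. Its values were 184 and 185 in the control, 464 and 475 in the EZHIP, 169.8 and 179 in the K27M and 56.8 and 63.0 in the EED-null libraries. Only EZHIP lay above control, and EED-null was the lowest group by a wide gap. The fall in EED-null was 3.07-fold (log2 -1.61 ± 0.10, adjusted p = 1.96e-05), and the difference in K27M was -0.08 (95% confidence interval -0.33 to 0.17). Reads of *Abcb1b* came out as whole numbers in 3 of 8 libraries, fewer than for any other transport gene, so its level is uncertain. Its related neighbour *Abcb1a* may share reads with it, which was not checked.

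*Abca8b*, a lipid transporter of the ABCA family, was at 97.5 and 113 in the control, 63.9 and 35.3 in the EZHIP, 30.6 and 28.8 in the K27M and 41.6 and 25.2 in the EED-null libraries. All 3 lines lay below control, and EED-null overlapped with both EZHIP and K27M. *Abca8b* was 3.54-fold lower in K27M (adjusted p = 0.00291) and 3.15-fold lower in EED-null (adjusted p = 0.00378). *Abca9*, of the same cluster of genes, was lower in EZHIP alone, at 17.4 ± 0.463 (SD, n = 2) against 82.9 ± 14.9 in control, 88.9 ± 9.01 in K27M and 109.6 ± 4.01 in EED-null. Its difference from control was 0.11 in K27M (95% confidence interval -0.26 to 0.48) and 0.41 in EED-null (0.04 to 0.78).

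Among the pumps, *Atp7b*, a copper-transporting ATPase, was at 4.11 and 2.95 in the control, 35.5 and 19.4 in the EZHIP, 65.9 and 49.8 in the K27M and 81.8 and 57.2 in the EED-null libraries. K27M and EED-null overlapped, and both lay above EZHIP. *Atp7b* rose 16.4-fold in K27M (log2 3.70 ± 0.34, adjusted p = 0.000101) and 19.7-fold in EED-null (log2 3.95 ± 0.34, adjusted p = 7.07e-05). 

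*Atp8b1* was at 149.9 ± 14.5 (SD, n = 2) in control, 305 ± 20.4 with EZHIP, 133 ± 1.10 with K27M and 136 ± 9.83 in EED-null, and *Atp6v0e2*, a small membrane subunit of the proton pump of acidic organelles, at 65.1 ± 9.58, 20.5 ± 11.2, 100.4 ± 3.56 and 75.3 ± 9.18. Neither was called against control in K27M or EED-null, with differences of -0.17 and -0.14 for *Atp8b1* and 0.63 and 0.21 for *Atp6v0e2*.

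The contrast of EED-null with K27M cells compares neither group on which the table was selected. It asks where loss of the complex and its inhibition by the mutant histone part. The spread in its tests came from all 8 libraries, so the control and EZHIP libraries used in the selection still enter its p-values. In it 6 transport genes were higher and 5 lower in EED-null, 36.7% of the 30, where 54.4% of all listed genes were called (26.6% higher and 27.8% lower). The median log2 difference was 0.09 over the 30 and -0.01 over the 875. From the 20 genes with higher expression under EZHIP 10 were called, 6 of them higher and 4 lower in EED-null, and of the 10 lower genes only *Kcnab2* was called. Among all listed genes, 55.8% of the 495 were called (34.1% higher and 21.6% lower) and 52.6% of the 380 (35.8% lower).

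**Figure D3:**
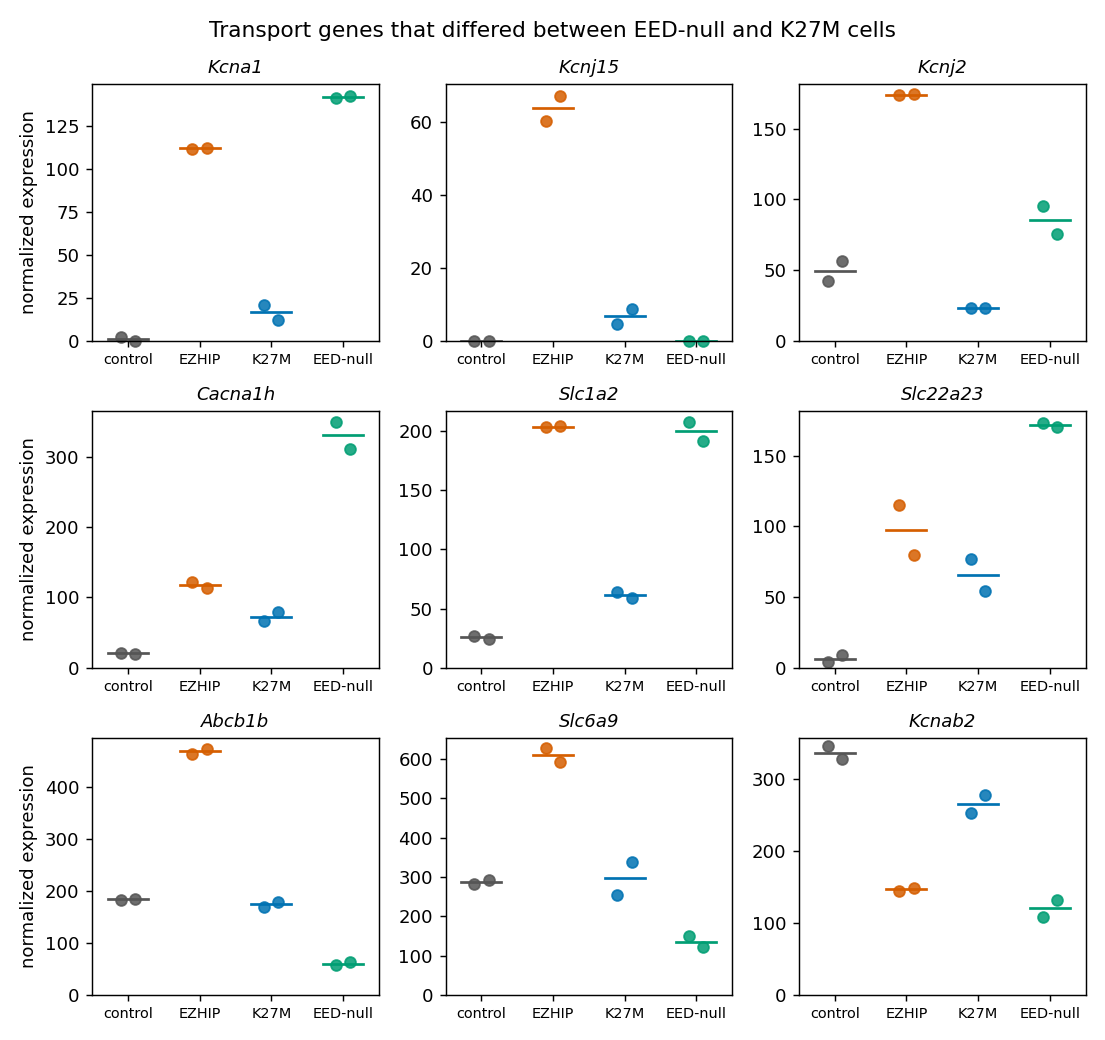
Normalized expression of 9 transport genes that differed between EED-null and K27M cells. Points are libraries, 2 in each group, short lines are group means, and the vertical axes start at 0 and have their own scale; *Kcnj15* is at 0 in both EED-null libraries, and *Abcb1b*, *Slc6a9* and *Kcnab2* are lowest there.

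Genes for channels led the higher set. *Kcna1* was 8.695-fold higher in EED-null than in K27M cells (log2 3.09 ± 0.52, adjusted p = 0.00198, and 0.0818 with a pseudocount of 0.1), *Cacna1h* 4.58-fold (log2 2.18 ± 0.14, adjusted p = 2.62e-05) and *Kcnj2* 3.73-fold (log2 1.84 ± 0.18, adjusted p = 0.000166). Carriers were also in the set. *Slc1a2* was 3.27-fold higher (log2 1.69, adjusted p = 2.71e-05) and *Slc22a23* 2.62-fold (log2 1.40, adjusted p = 0.0119). The call of *Slc22a23* was lost without the first EED-null library (log2 1.39, adjusted p = 0.0502) or the second K27M library (log2 1.15, adjusted p = 0.07).

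The lower set was mixed. *Kcnj15*, at 0 reads in EED-null, was at least 1.89-fold lower there than in K27M (adjusted p = 0.000103), *Abcb1b* was 2.91-fold lower (log2 -1.53 ± 0.10, adjusted p = 3.14e-05) and *Kcnab2* 2.21-fold lower (log2 -1.14 ± 0.13, adjusted p = 0.000349). *Slc6a9* was 2.19-fold lower (log2 -1.12 ± 0.18, adjusted p = 0.0015), and fell just short of 2-fold without the second EED-null library (log2 -0.97) or the second K27M library (log2 -0.91).

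For the other 19 transport genes the intervals reflect only the spread between these libraries, which may be technical. They do not bound the difference between separate cultures. The 95% confidence interval of the log2 difference was -0.25 to 0.39 for *Abca1*, -0.32 to 0.32 for *Slc36a4*, -0.26 to 0.33 for *Atp8b1* and -0.16 to 0.39 for *Slc30a4*, all within 2-fold either way. It was wide for *Slc6a2* (-2.33 to 1.53) and *Slc13a5* (-2.60 to 0.29), and neither was called. *Slco5a1*, *Kcnk6*, *Scn1a* and *Cacna2d1* had adjusted p-values between 0.000675 and 0.0278 with log2 differences of -0.99, -0.98, 0.95 and 0.82. All were under the 1 that a call needs on the log2(value + 1) scale, although the ratios of means were 2.06 for *Kcnk6* and 2.03 for *Scn1a*, and with a pseudocount of 0.1 these 2 passed it (-1.01 and 1.02). Leaving out 1 library took *Slco5a1* (-1.05 without the second K27M library), *Kcnk6* (-1.29 without the first) and *Scn1a* (1.15 without the second EED-null library and 1.17 without the second K27M library) past it. The same was seen for *Kcnc2* (1.13) and *Scn7a* (1.25) without the first K27M library and for *Slc13a5* (-2.03, adjusted p = 0.00758) without the second EED-null library.

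**Figure D4:**
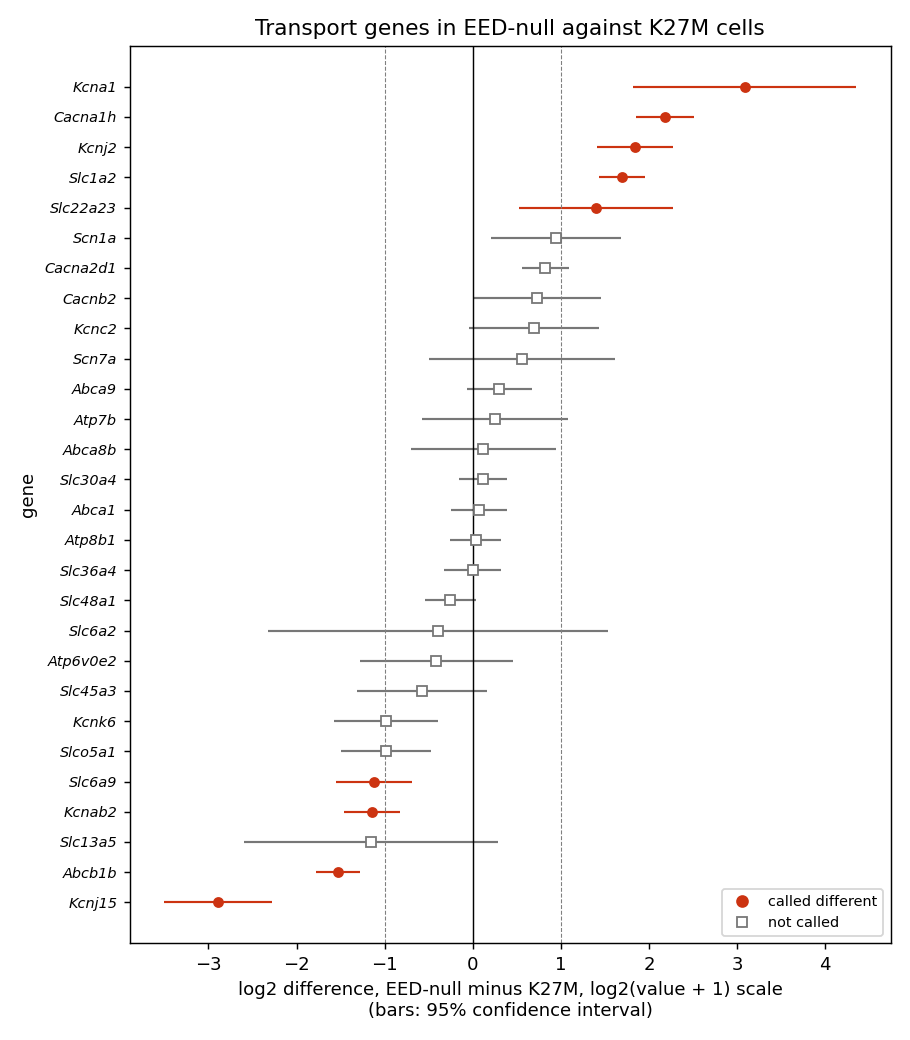
Log2 difference between EED-null and K27M cells for 28 transport genes on the log2(value + 1) scale, in order of size. Bars are 95% confidence intervals from limma with 2 libraries per group, filled circles are called genes, open squares those not called, and dashed lines mark 2-fold; the values run from -2.89 for *Kcnj15* to 3.09 for *Kcna1*.

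Against EZHIP cells, whose libraries entered the selection of the table, K27M had 6 transport genes higher and 7 lower, 43.3% of the 30, where 58.7% of all listed genes were called (32.6% higher and 26.2% lower). EED-null had 7 higher and 6 lower, again 43.3%, where 44.9% of all listed genes were called (25.1% higher and 19.8% lower). *Abca1* (2.95-fold in K27M and 3.10-fold in EED-null), *Abca9* (5.10-fold and 6.29-fold), *Atp6v0e2* (4.91-fold and 3.68-fold) and *Atp7b* (2.11-fold and 2.53-fold) were higher than in EZHIP in both groups. *Abcb1b* (2.69-fold and 7.84-fold), *Slc6a9* (2.06-fold and 4.51-fold), *Atp8b1* (2.30-fold and 2.25-fold) and *Kcnj2* (7.59-fold and 2.03-fold) were lower in both, as was *Kcnj15*, by 9.54-fold in K27M and at least 18.1-fold in EED-null.

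Other calls against EZHIP were made in 1 group each. In K27M *Kcnk6* was 3.45-fold higher, and *Kcna1* and *Slc1a2* were 6.85-fold and 3.33-fold lower, the call of *Kcna1* being lost with a pseudocount of 0.1 (log2 -2.81, adjusted p = 0.108). In EED-null *Cacna1h* and *Scn1a* were 2.80-fold and 4.48-fold higher, and *Slc13a5* was 5.08-fold lower. Adjusted p-values of the genes named here were 0.0234 or less.

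Some of these calls turned on single libraries or on the processing. For *Atp7b* the K27M call was lost without the second EZHIP library (log2 0.68) or the first K27M library (log2 0.90), with a pseudocount of 5 (log2 0.99) and when libraries were rescaled (log2 0.96), and the EED-null call without the first EED-null (log2 1.09, adjusted p = 0.0688) or the second EZHIP library (log2 0.93). The same held for *Kcnj2* in EED-null without the second EED-null library (log2 -0.86) or with a pseudocount of 5 (log2 -0.99), *Slc6a9* in K27M without the first K27M library (log2 -0.85) and *Slc13a5* in EED-null without the first EZHIP library (log2 -2.19, adjusted p = 0.0554).

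The 30 genes lie on 16 chromosomes of mm9, each at a single locus. *Abca8b* (109793504 to 109857159) and *Abca9* (109962063 to 110029510) lie on the minus strand of chromosome 11, 104903 bp apart, and *Kcnj2* (110927478 to 110938135) follows on the plus strand after 897967 bp. These neighbours differed in pattern, since *Abca8b* was called lower in K27M and EED-null, *Abca9* was called in neither and *Kcnj2* was called lower in K27M only. *Scn1a* (66108838 to 66278897) and *Scn7a* (66511482 to 66622971) lie 232584 bp apart on the minus strand of chromosome 2. For 10 of the 30 genes exons overlap another gene, for 9 on the opposite strand, and since the sources used here do not say that strand was used in counting, their reads cannot be told apart from those of the partner.

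Other genes for transport, named in a separate list of channels, aquaporins, connexins, peptide transporters and regulatory subunits, numbered 18 in the table, 8 higher and 10 lower in EZHIP cells. In K27M 6 of them were called higher, 2 lower and 10 not called, and in EED-null 4 were called higher, 5 lower and 9 not called. Over all 875 listed genes 41.4% were called higher and 20% lower in K27M, and 39.9% and 25.1% in EED-null. *Gjb2*, a connexin of gap junctions, was at 0 and 0 in the control, 24.9 and 18.2 in the EZHIP, 21.3 and 13.99 in the K27M and 191 and 204 in the EED-null libraries. *Aqp1*, a water channel, was called higher in both groups, at 229 and 214 in control, 662 and 809.5 with K27M, and 750.0 and 781 without EED. *Gjb2* and *Aqp1* were chosen after their values were seen.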

How the data were processed

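RNA of MEFs was sequenced in 8 libraries, 2 per group, after removal of ribosomal RNA, and groups and replicate numbers came from the sample labels. The authors estimated reads per gene with RSEM (version 1.2.4 in the submitters' processing notes) on mm9 and tested with EBSeq. In the deposited signal, estimated reads are divided by 1 size factor per library, for the 875 genes whose EZHIP and control means differ at least 2-fold. The paper called differential genes at 2-fold and by a limit on EBSeq's posterior probability, so the spread between replicates may also have entered the choice. EZHIP and control libraries did not overlap for 100% of the 875 genes. RNA of FFT cells was spiked into each sample, and whether it entered the size factors is not given in the sources used here.

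Estimated reads were recovered from what 1 read is worth in each library. Whole reads (within 0.005) came out for 72.2% to 82.5% of the listed genes per library, so the values are not counts. Tests used limma (version 3.58.1, R 4.3.3) after taking log2(value + 1), and the fit held group means and all 8 libraries. Benjamini-Hochberg adjustment ran over the 875 genes. The script was tested on simulated data. Tables and figures used Python 3.11.15, numpy 2.4.6, pandas 2.3.3 and matplotlib 3.10.9.

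Of the 30 transport genes 2 are counted but their own values are not reported here. Members and lists were chosen with earlier results of these data known. Values in every library are given for families of at most 3 genes, for the 8 largest calls between EED-null and K27M, and for the 8 largest rises and 4 largest falls by mean change in K27M and EED-null. Alternative fits left out each library in turn, dropped genes with a mean under 5, used a pseudocount of 0.1 or 5, size factors computed on the listed genes, a replicate block, a variance trend or the 2 groups alone, called by adjusted p alone, or removed a named list of soluble or auxiliary products.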

Additional observations from a re-analysis of the deposited data

Results flagged for a closer look

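The values below are log2 differences between EED-null and K27M cells. The lines differed in the transport genes below by a limma test of that difference itself, whatever each did against control.

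Those higher in EED-null were *Kcna1* (3.09), *Cacna1h* (2.18), *Kcnj2* (1.84), *Slc1a2* (1.69) and *Slc22a23* (1.40). Those lower in EED-null were *Kcnj15* (-2.89, a value that depends on the pseudocount since EED-null is at 0 reads), *Abcb1b* (-1.53), *Kcnab2* (-1.14) and *Slc6a9* (-1.12). No cause of these differences was tested, the EED-null group is 1 clone, and the K27M group was transduced and selected with puromycin.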

How the results depend on the processing

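With single libraries left out, calls of transport genes against control numbered 12 to 13 higher and 4 to 6 lower in K27M, and 11 to 12 higher and 5 to 8 lower in EED-null. Between EED-null and K27M they numbered 5 to 8 higher and 4 to 5 lower, in K27M against EZHIP 5 to 6 and 7 to 8, and in EED-null against EZHIP 6 to 7 and 5 to 6. Under the other alternatives 1 comparison moved by more than 1.5 times, K27M against EZHIP with the adjusted p alone, at 10 higher and 11 lower genes in place of 6 and 7. The list of soluble or auxiliary products named for removal held none of the 30 genes, so that alternative left the counts as they were and tests nothing here. The auxiliary channel subunits *Kcnab2*, *Cacnb2* and *Cacna2d1* are not on it and were kept.

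Rescaling on the listed genes shifted the median log2 difference of all genes by -0.43 in K27M against control and by -0.39 in EED-null. It moved the transport genes called higher and lower to 11 and 7 (K27M) and to 11 and 9 (EED-null). This rescaling takes the median listed gene to be unchanged, although the genes were chosen for a change in EZHIP cells. An effect of scaling and one of that choice cannot be told apart in it. In EZHIP against control, the contrast that chose the genes and was not tested, 15 of the 20 higher and 10 of the 10 lower genes were then still at 2-fold or more. Of the 115 gene values followed, in 1722 fits, 42 fits lost a call, 20 gained it and 22 changed direction, all 22 of them of values that were not called. Under rescaling these were, in K27M against control, *Abca9* (-0.35), *Cacna2d1* (-0.30), *Kcnk6* (-0.43) and *Slc6a9* (-0.43), in EED-null against control *Atp6v0e2* (-0.18) and *Slc13a5* (-0.17), and between EED-null and K27M *Slc36a4* (0.061). The rest changed direction with a library left out. Over the fits without 1 library, values ran in K27M against control from -0.074 to 0.29 for *Abca9*, -0.28 to 0.33 for *Kcnk6* and -0.18 to 0.24 for *Slc6a9*, in EED-null against control from -0.60 to 0.14 for *Scn1a* and -0.70 to 1.06 for *Slc13a5*, and between EED-null and K27M from -0.0086 to 0.14 for *Abca1*, -0.23 to 0.47 for *Abca8b*, -0.0030 to 0.51 for *Atp7b*, -0.043 to 0.10 for *Atp8b1*, -0.14 to 1.25 for *Scn7a*, -0.029 to 0.026 for *Slc36a4* and -0.97 to 0.17 for *Slc6a2*.

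No strong pairing by replicate number was seen. Deviations of libraries with the same number correlated between -0.09 and 0.11 over the 875 genes. With 2 libraries per group this cannot exclude a pairing or a shared batch. The fit with a replicate block gave 12 higher and 5 lower genes in K27M against control and lost 1 call, that of *Slc6a2* (log2 -2.23, adjusted p = 0.0601), and it gave the same counts in the other comparisons. Depth limits *Slc6a2*, *Kcnj15*, *Kcna1*, *Cacnb2*, *Slco5a1*, *Scn1a* and *Atp7b*, which had at most 5 reads per library in at least 1 group. Differences under the precision of 2 libraries were not detectable, and genes outside the table were not analysed here.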
